A study of Mus musculus with 6 samples.

Results

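The enzymes that make and use nicotinamide adenine dinucleotide (NAD) were followed in colon tissue with tumors from 6 mice. The members were 9 genes of 37325 genes named on the array, taken by symbol with all of their probes: Nmnat1, Nmnat2, Nmnat3, Nampt, Nadsyn1, Nmrk1, Qprt, Cd38 and Nnmt. They were chosen around Nmnat1, whose levels on these arrays were already known. The mice were male C57BL/6, bought at 6–8 weeks of age. They carried colitis-associated colon cancer induced with azoxymethane (AOM, 10 μg/g) and dextran sodium sulfate (DSS, 2%). RG@M-γ-CD, a complex of the kinase inhibitor regorafenib (RG) with a mannose-modified γ-cyclodextrin, was given by mouth to 3 of them at 30 μg/g, equal to 10 μg/g of regorafenib, and the other 3 received PBS. Treatment lasted 21 days and was followed by 14 days of observation. All 6 mice had received AOM and DSS, and the labels give neither the place of each tumor along the colon nor any genotype beyond the strain. Each mouse had 1 one-color Agilent array.

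NAD carries electrons in energy metabolism and is also consumed as a substrate by sirtuins, ADP-ribosyl transferases and NAD hydrolases. It has to be rebuilt, mostly by salvage of the nicotinamide that these enzymes release. Nampt turns nicotinamide into nicotinamide mononucleotide and limits the rate of this pathway, Nmrk1 makes the same mononucleotide from nicotinamide riboside, and the Nmnat enzymes turn it into NAD. Nmnat1 lies in the nucleus, Nmnat2 in the cytosol and on Golgi membranes, and Nmnat3 in mitochondria. Qprt and Nadsyn1 serve the routes from tryptophan and nicotinic acid, Cd38 breaks NAD down, and Nnmt removes nicotinamide by methylation.

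The labelled groups were compared first. A heat map of the study also sets the arrays apart in another way, by file number and without naming conditions: RG replicates 2 and 3 with PBS replicate 1 (set A), and RG replicate 1 with PBS replicates 2 and 3 (set B). The labels put 1 array of each group on the other side of this division, so labels and heat map cannot both separate the arrays by treatment. Which of them does was not settled by the sources used here, and every RG minus PBS value below, with its sign, holds for the arrays as labelled. Differences between these sets are given as a description with no test, because Nmnat1 and with it the members were picked from that contrast. All arrays lay on 1 slide and had 1 scan. Between 49.6% and 55.2% of the gene probes of an array were well above background, and no gene spot was saturated. The count of called genes depended on RG replicate 1. With it the linear model of limma called 0 of 19090 genes at an adjusted p of 0.05. Without it 202 of 19466 were called, the filter on dim probes then passing more genes. Leaving out any other array gave 0.

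The probes on which the Nmnat1 result turns are shown first, because each is a separate stretch of sequence and reads a separate stretch of transcript. All are given 5′ to 3′ from the array's own annotation, in lower case throughout, with positions in the mm9 build. The files give these positions without saying whether they fall in coding sequence or in untranslated parts. The main Nmnat1 probe lies at chr4:148842959-148843018 on the minus strand.
Nmnat1 A_55_P2146374: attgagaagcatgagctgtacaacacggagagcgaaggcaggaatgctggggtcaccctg
Another Nmnat1 probe lies at chr4:148842735-148842794, 164 bases away, and the first 30 of its 60 bases are shown.
Nmnat1 A_51_P393055: aaacaaaccaccagggaattaagatccgtg
The neighbouring gene Ube4b, which encodes a ubiquitin ligase, has a probe that starts at position 879 of its transcript and spans an exon junction, from chr4:148761325-148772765 on the same strand.
Ube4b A_55_P2074908: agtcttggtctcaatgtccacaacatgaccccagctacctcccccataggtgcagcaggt
Rbp7, a retinol-binding protein gene, lies between Ube4b and Nmnat1, and the first 30 bases of its probe at chr4:148823870-148823929 are shown.
Rbp7 A_55_P2496218: ctcgtagaaggaacgggtgtttgtctgttt

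Nmnat1 was present at 2 levels, and these did not follow the labelled treatment. Its level, in log2 intensity relative to the 75th percentile of the array, was 2.10, 0.25 and 0.05 on RG replicates 1, 2 and 3. On PBS replicates 1, 2 and 3 it was −0.0001, 2.37 and 2.10. One array of each labelled group thus lay with the other group, and the groups overlapped. The means were 0.80 ± 1.13 for RG and 1.49 ± 1.30 for PBS (SD, n = 3). The difference of −0.69 (SE 0.79, 95% interval −2.60 to 1.22, limma adjusted p = 1.0) was smaller than the spread between replicates.

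Between the sets the same values separated widely. Set A had a mean of 0.10 ± 0.13 and set B of 2.19 ± 0.16 (SD, n = 3), a difference of −2.09 or 4.26-fold. The highest array of set A and the lowest of set B were 1.85 apart, whereas the arrays within a set spanned 0.25 and 0.28. The other Nmnat1 probe ran in parallel, with 2.0, 0.15 and −0.0006 on RG replicates 1, 2 and 3 and −0.037, 2.17 and 2.09 on PBS replicates 1, 2 and 3. Its set difference was −2.05. Over all genes tested, 24.8% had sets that did not overlap, and 0.157% (30 genes, Nmnat1 among them) were without overlap and lower in set A by at least the fold of Nmnat1. Since the gene was chosen for this contrast, nothing further is read from its place among them.

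**Figure D1:**
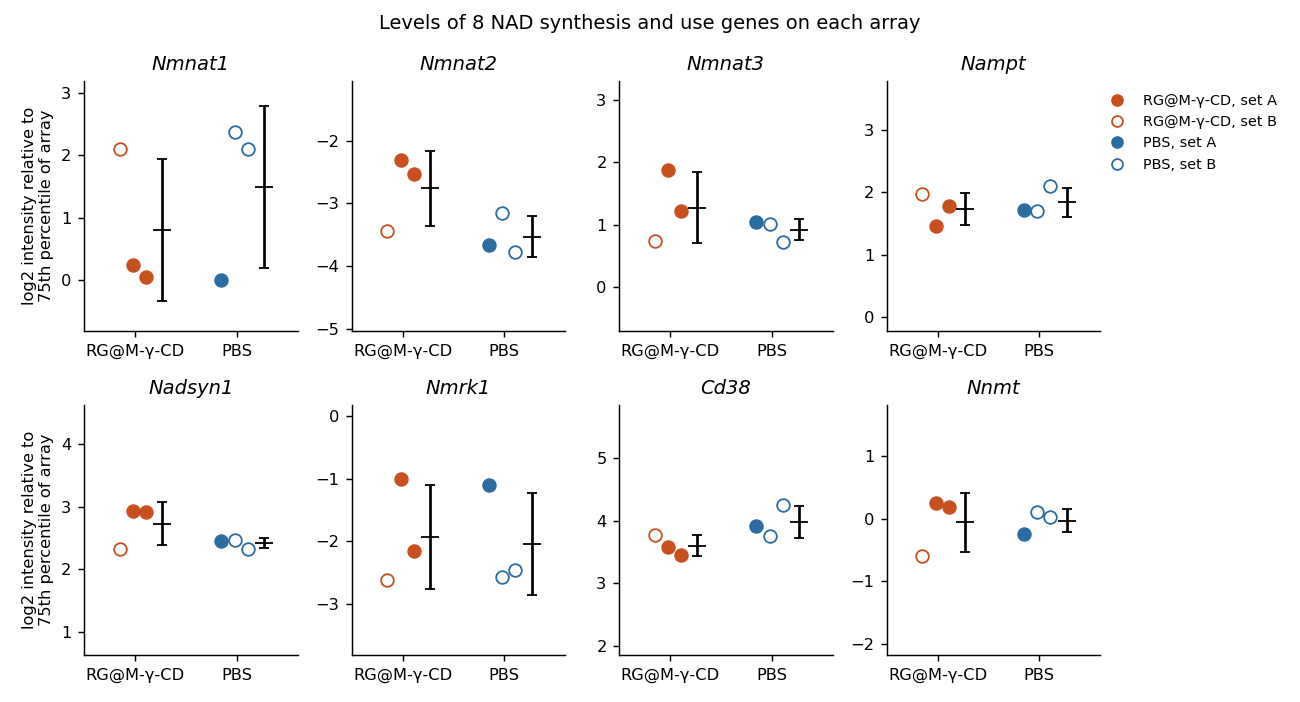
Level of each of the 8 members measured on each array (y axis, log2 intensity relative to the 75th percentile of the array, each panel spanning the same number of log2 units) for mice given RG@M-γ-CD or PBS. Filled points are set A, open points set B, and black bars are mean ± SD of the labelled group (n = 3). Nmnat1 falls at 2 levels, with 1 array of each labelled group at the level of the other group, while Nampt and Cd38 span 0.65 and 0.81 in all.

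The other Nmnat genes did not share this pattern. Nmnat2, measured at chr1:154966281-154966340, stood at −3.43, −2.31 and −2.53 on RG replicates 1, 2 and 3 and at −3.66, −3.16 and −3.77 on the PBS replicates. It was nominally higher in RG by 0.77 (SE 0.34, 95% interval −0.036 to 1.59, limma adjusted p = 1.0), with RG replicate 1 inside the PBS range. The value moved to 1.11 without RG replicate 1 (limma unadjusted p = 0.00387, adjusted p = 0.118) and to 0.29 with normexp background correction (unadjusted p = 0.256). The other 3 Nmnat2 probes were dim, meaning not well above background, on all arrays.

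Nmnat3, measured at chr9:98311751-98311810, was at 0.74, 1.87 and 1.22 in RG and at 1.04, 1.01 and 0.72 in PBS. The labelled groups overlapped and differed by 0.35 (SE 0.30, limma adjusted p = 1.0). Without RG replicate 1 the difference was 0.62 (adjusted p = 0.399), and without RG replicate 2 it was 0.053. All of set A lay above all of set B, by 0.56 in the means, but the closest arrays were 0.036 apart. Its dimmer probe A_55_P2730681 did not separate the sets, with values from −3.47 to −2.20. Of its 2 remaining probes, one was above background on 2 arrays and one on none.

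Among the enzymes that feed the Nmnat step, Nampt was even across the arrays. At chr12:33535475-33535534 its levels were 1.97, 1.46 and 1.78 in RG and 1.72, 1.69 and 2.10 in PBS. The difference of −0.11 (SE 0.21, limma adjusted p = 1.0) lay within the replicate spread. The sets differed by −0.27, with overlap.

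Nmrk1 gave different patterns on its separate probes. The brighter probe is assigned to the transcript ENSMUST00000162446 at chr19:18711730-18711789, and the other to the RefSeq transcript at chr19:18725771-18725830, both on the plus strand. The first 30 bases of each show that they read different sequence.
Nmrk1 A_55_P2718403: agtgtaacattggttttagctttcacctgg
Nmrk1 A_52_P663526: tggattcagatacttgaagggctattctga
The brighter probe stood at −2.63, −1.01 and −2.16 in RG and at −1.11, −2.57 and −2.47 in PBS. All of set A lay above all of set B on it, by 1.13 in the means, and the labelled groups differed by 0.12 (SE 0.54, limma adjusted p = 1.0). The set difference was 0.73 with normexp background correction and 0.39 with the mean of the passing probes. On the RefSeq probe the values were −3.45, −3.04 and −2.95 in RG and −3.09, −1.62 and −3.00 in PBS, where PBS replicate 2 was the highest and the sets overlapped. With that mean the labelled difference turned to −0.23. A direction for Nmrk1 as a gene was therefore not obtained. Its remaining probe was dim throughout.

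The enzymes of the remaining routes differed little. Nadsyn1, which adds the amide group in the last step from nicotinic acid, had 2.33, 2.94 and 2.93 in RG and 2.46, 2.48 and 2.33 in PBS at chr7:150981766-150981825. RG replicates 2 and 3 were above every other array, and RG replicate 1 was level with the lowest PBS array. The labelled difference was 0.31 (SE 0.21, limma adjusted p = 1.0), and 0.51 without RG replicate 1 (adjusted p = 0.254). Its other probe shares 49 bases with this one and is no independent reading. Qprt, which converts quinolinic acid on the route from tryptophan, was not tested: of its 2 probes, 1 was dim throughout and the other rose above background on RG replicate 2 alone.

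Cd38, a cell-surface NAD hydrolase of immune cells, was nominally lower in RG. At chr5:44302865-44302924 it stood at 3.77, 3.58 and 3.45 in RG and at 3.91, 3.76 and 4.26 in PBS. RG replicate 1 lay just above PBS replicate 2, and apart from this pair every RG array was below every PBS array. The difference was −0.38 (SE 0.19, 95% interval −0.84 to 0.085, limma adjusted p = 1.0), and −0.24 without PBS replicate 3. Cd38 also depends on which cells a piece of tissue holds, and fewer cells of a type cannot be told apart from less RNA per cell in these arrays. The summed T cell markers ranged from 0.51 to 1.07 in RG and from 0.81 to 1.72 in PBS, and the macrophage markers from 2.86 to 4.09 and from 3.68 to 3.98. The neutrophil markers ranged from 5.54 to 6.63 in RG and from 5.88 to 6.69 in PBS. The B and plasma cell markers were not lower in RG, at 5.54 to 5.71 against 5.16 to 5.66 in PBS. Their part in the Cd38 values was not tested.

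Nnmt, at chr9:48399997-48400056, had −0.61, 0.24 and 0.18 in RG and −0.24, 0.11 and 0.02 in PBS. The difference of −0.02 (SE 0.27, limma adjusted p = 1.0) changed sign with the library left out, reaching 0.25 without RG replicate 1. Another Nnmt probe was above background on 5 arrays, with values from −4.48 to −3.57, and a further one on none.

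Over the members, 13 of 22 probes passed the filter on dim probes and 8 of 9 genes were tested. Of these, 4 were nominally higher and 4 lower in RG, with a median difference of 0.047 against −0.012 over all genes tested. No member reached an adjusted p of 0.05, where the background over all genes was 0%, and none reached an unadjusted p of 0.05 in limma, where it was 2.19% (419 genes, 0.864% of all genes higher and 1.33% lower). The methods' t-test also called 0 genes after adjustment and 381 genes at an unadjusted p of 0.05. Without RG replicate 1, Nmnat2, Nmnat3 and Nadsyn1 passed the unadjusted threshold, as did 12.5% of all genes tested in that setting, and no member passed the adjusted one. The labelled groups did not separate for any member, against 4.57% of all genes. The sets did so for 3 of 8 members, against 24.8% of all genes: Nmnat3 and Nmrk1 were higher in set A (6.43% of all genes) and Nmnat1 lower (18.4%). Of these, Nmnat1 and Nmrk1 differed by a fold of at least 2, against 3.52% of all genes. Nmrk1 fell below this fold in 6 of the 13 alternatives run, with set differences of 0.39 to 0.97 on the log2 scale. The members were chosen from the set contrast, so these counts are descriptive.

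**Figure D2:**
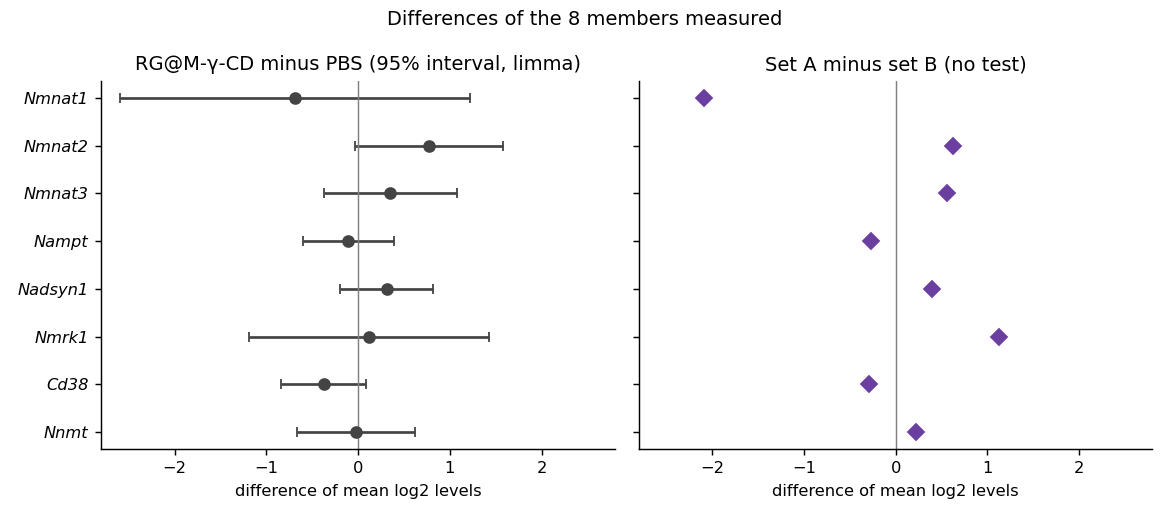
Difference of mean log2 levels for each member measured. The left panel gives RG@M-γ-CD minus PBS with 95% intervals from limma (n = 3 in each group), and the right panel gives set A minus set B with no test. All 8 intervals on the left include 0, and Nmnat1 stands at −2.09 on the right.

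Some markers of other tissue differed between the sets, and their part in the set differences was not tested. The summed level of 6 smooth muscle markers was 7.78 to 9.59 in set A and 6.61 to 7.72 in set B. The PBS arrays were nearly level, at 7.78, 7.56 and 7.72 on replicates 1, 2 and 3. The spread lay among the RG arrays, at 6.61, 9.31 and 9.59. Singly, Des and Tagln overlapped between the sets. For the 5 fibroblast markers the sum was 6.57 to 6.91 and 6.03 to 6.50, with the PBS arrays at 6.57, 6.49 and 6.50. Singly the fibroblast markers did not move alike: Dcn was higher in set A by 0.59 and Pdgfra lower by 0.40, each without overlap. Col1a1, Col1a2 and Lum overlapped. Of 5 distal Hox genes listed, only Hoxd13, a gene of the hindmost gut, was measured. Hoxd13 ranged from 2.33 to 3.35 in set A and from −3.77 to −0.09 in set B. The sum of the 3 T cell markers measured was lower in set A, at 0.51 to 0.81 against 0.98 to 1.72. Singly, Cd3e and Cd4 were lower in set A without overlap, and Cd3g overlapped. All 8 epithelial markers were measured, and their sum was 9.39 to 9.92 in set A and 9.50 to 9.98 in set B. Set A lay in the first row of the slide, as did RG replicate 1. Within this row Nmnat1 was at 2.10 on RG replicate 1 and at 0.25, 0.05 and −0.0001 on the arrays of set A.

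The chromosomal neighbours of Nmnat1 were then examined, since both of its probes gave the same pattern. Of the 5 tested genes on each side, Cenps, Pgd, Ube4b, Rbp7 and Lzic had sets that did not overlap, all lower in set A, where 18.4% of all genes tested were lower without overlap. Rbp7, next to Nmnat1, was at 1.03, 0.92 and 0.40 in RG and at −0.57, 1.86 and 1.51 in PBS. It was lower in set A by 1.22 in the means, although RG replicates 1 and 2, of different sets, lay close together. Lzic, the neighbour on the other side, was lower by 0.41, Cenps, a kinetochore gene, by 0.80, and Pgd, of the pentose phosphate pathway, by 0.46. Kif1b, Ctnnbip1, Clstn1, Pik3cd and Tmem201 had overlapping sets, with differences from −0.15 to −0.0054. Within 500 kb of the main Nmnat1 probe, 10 of 30 passing probes were lower in set A without overlap and 1 was higher, against 17.5% and 7.63% of all passing probes. Differences of at least 1 ran both ways, and their share over all passing probes was not computed. The 4 lower probes include both probes of Nmnat1, the gene picked from this contrast, which also count among the 10. The transcripts BQ557966 and 6720462K09Rik, named after their values were seen, were higher by 1.82 without overlap and by 1.38 with overlap. For the labelled groups Pik3cd, a kinase gene of white blood cells, was nominally lower in RG by 0.59 (unadjusted p = 0.0373 in limma, not adjusted), and the other neighbours overlapped.

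Ube4b differed between its own probes. This was noticed after the values had been seen. The probe near the start of the transcript, shown above, stood at 1.72, −0.76 and −0.97 in RG and at −0.98, 1.62 and 1.37 in PBS. Its sets differed by −2.47, in the direction of Nmnat1 and by a similar amount. The probes at positions 4397 and 5301 of the same transcript differed by −0.35 and −0.24. The early and late stretches of the Ube4b transcript thus gave unequal differences on the same arrays.

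**Figure D3:**
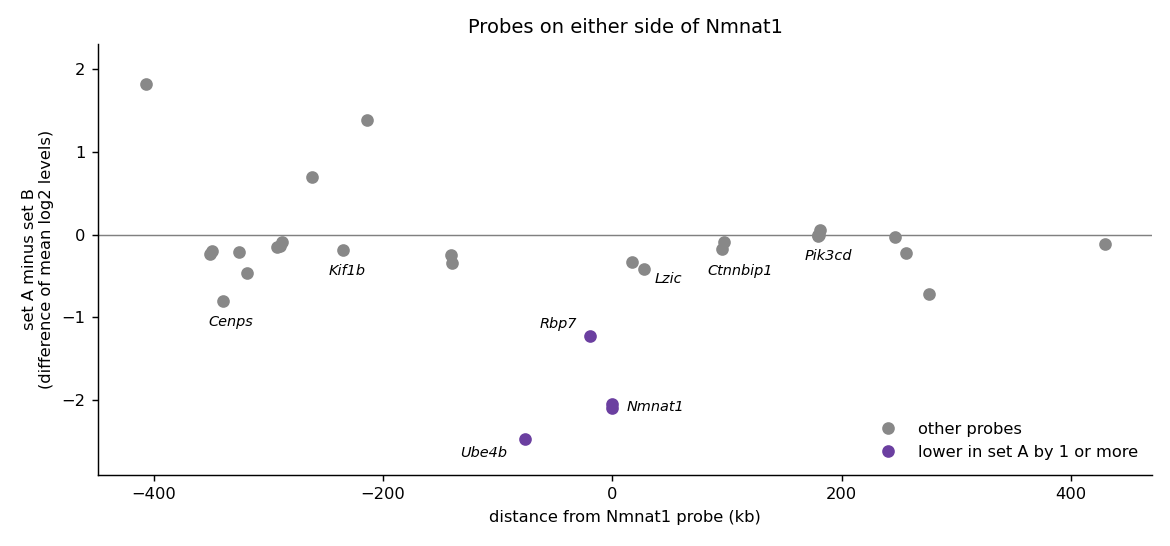
Set A minus set B for the 30 probes that passed the filter within 500 kb of the main Nmnat1 probe (y axis, difference of mean log2 levels) against distance from that probe (x axis, kb). The 4 probes lower in set A by 1 or more (purple) are both Nmnat1 probes, the Rbp7 probe and the early Ube4b probe, 75.9 kb away, and 2 probes (grey) are higher by 1 or more, at 1.82 and 1.38.

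Probe by probe, the likeness to the main Nmnat1 probe was measured as the root mean square (RMS) distance between the values of 2 probes over the 6 arrays, each centred on its own mean. Of the 28291 probes that passed the filter, the nearest was the other Nmnat1 probe (RMS 0.062) and the next was the early Ube4b probe (RMS 0.23). The one after that, a probe of the defensin gene Defa1, was at 0.40. This ranking over probes was also made after the values were seen. As background, mice of the Wld-S strain, known for slow degeneration of cut axons, carry a repeat on this chromosome that takes in Rbp7 and joins the start of Ube4b to Nmnat1. Whether any of these mice differed in DNA at this place was not tested.

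**Figure D4:**
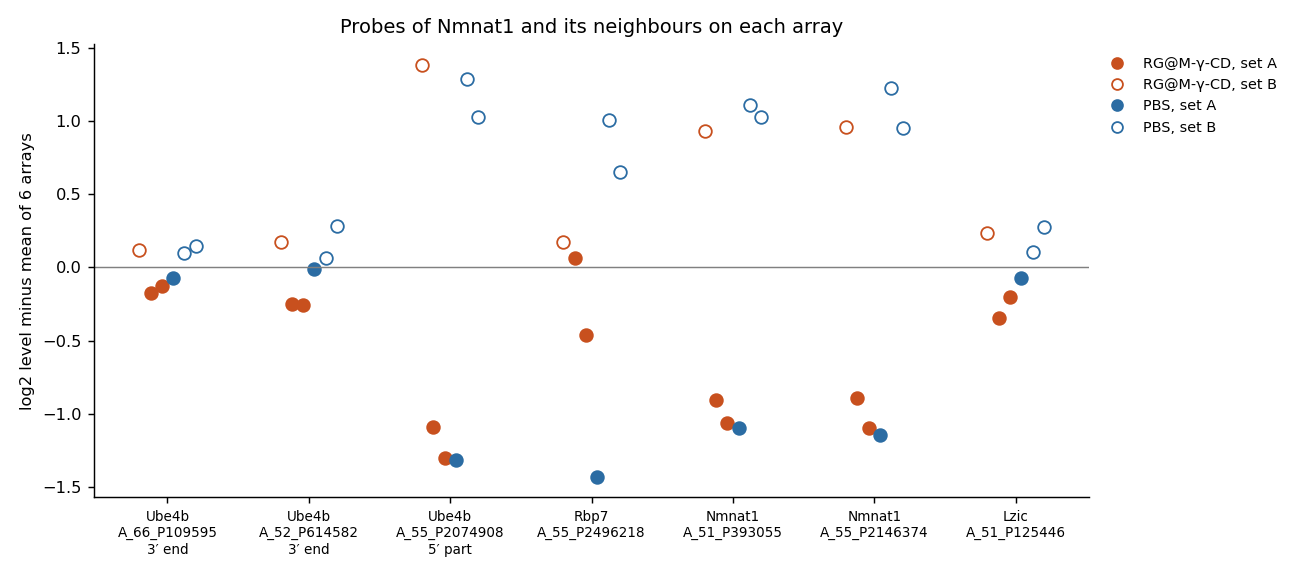
Values of 7 probes on each array (y axis, log2 level minus the mean of the 6 arrays of that probe), in their order on the chromosome, with RG@M-γ-CD in orange and PBS in blue, set A filled and set B open. The early Ube4b probe and both Nmnat1 probes fall in 2 groups of 3 arrays, whereas the late Ube4b probes and Lzic, with set differences of −0.35, −0.24 and −0.41, stay near their means.

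Over genes, each by its brightest probe, the 10 nearest to Nmnat1 had RMS distances of 0.42 to 0.52 over the 6 arrays. They were Rnase2a, of the eosinophil ribonuclease family, the Paneth cell defensins Defa1 and Defa24, the clotting factor gene F13a1, the inhibitory T cell receptor Pdcd1, the lymphocyte receptor Klrg1, Rhox5, Serpinf2, a non-coding transcript of chromosome 7 and the transcript ENSMUST00000098889. The defensins spanned a wide range, Defa1 from 5.60 to 8.78 and Defa24 from 5.61 to 8.84. With the sign turned, the 5 nearest were 2810040C05Rik (RMS 0.24), AK156640, C130009A20Rik, BE981614 and Dcaf12l2 (RMS 0.42). None of the 15 is an enzyme of NAD metabolism among the members or the list below.

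The rest of NAD metabolism was read from a list of 69 genes, of which 68 were matched on the array and 57 passed the filter. In RG, 31 were nominally higher and 26 lower, with a median of 0.037 against −0.012 over all genes. None passed the adjusted threshold in limma, and 1 of the 57 passed the unadjusted one, where the share over all genes was 2.19%. This was Kmo, the kynurenine hydroxylase on the route from tryptophan, with −2.62, −3.33 and −3.01 in RG and −1.58, −2.09 and −2.68 in PBS. It was nominally lower in RG by 0.87 (SE 0.33, 95% interval −1.66 to −0.084, unadjusted p = 0.0349, adjusted p = 1.0 in limma), and PBS replicate 3 lay within the RG range. Of the 5 genes of this route that could be tested, 2 were nominally higher and 3 lower. Ido1, which opens the route under inflammation, varied from −1.77 to −0.08 in RG and from −0.98 to 0.88 in PBS.

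Among the consumers of NAD no gene was called, and differences between roles were not tested. Of the 7 sirtuins, the NAD-dependent deacylases, 6 were nominally higher in RG, with a median of 0.20. Over all genes tested, 47.2% were nominally higher in RG. Sirt5 (0.82, 0.93 and 1.15 in RG and 0.57, 0.81 and 0.59 in PBS) and Sirt1 (1.64, 1.81 and 1.74 in RG and 1.53, 1.46 and 1.59 in PBS) separated the labelled groups. Their differences were 0.31 (limma unadjusted p = 0.106) and 0.20 (limma unadjusted p = 0.202), and a dimmer Sirt1 probe overlapped, at 0.10. Of all genes tested, 2.38% were higher and 2.19% lower in RG without overlap. Sirt6 was at −0.10, the only one of the 7 below 0. Of the 17 poly and mono ADP-ribosyl transferases tested, 7 were nominally higher and 10 lower. Parp9, a gene induced by interferon, stood at 2.13, 2.0 and 1.83 in RG and at 2.61, 2.14 and 2.59 in PBS. It separated the groups with a difference of −0.46 (limma unadjusted p = 0.0523), whereas a dimmer Parp9 probe overlapped, at −0.065. Parp14, a partner of Parp9, differed by −0.53 (limma unadjusted p = 0.0666), with overlap. Ido1 and the genes named in this paragraph were picked after their values were seen.

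The other roles lay close to 0, and their counts stand beside the same 47.2% of all genes nominally higher in RG. For entry of nicotinate and nicotinamide riboside, 2 of 6 genes were nominally higher, with a median of −0.12. For NADP, transport and redox it was 8 of 10, with a median of 0.073, and Nudt13, a nucleotide hydrolase also picked after its values were seen, separated the groups at 0.31. For nicotinamide breakdown and methyl donor supply 3 of 5 were higher, for the cyclases and hydrolases 0 of 3, and for removal of ADP-ribose 3 of 4. In all, 3 of the 57 genes had all RG arrays above all PBS arrays (2.38% of all genes) and 1 had all below (2.19%). By the sets, 3 were higher in set A without overlap and 8 lower, against 6.43% and 18.4% of all genes.

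**Figure D5:**
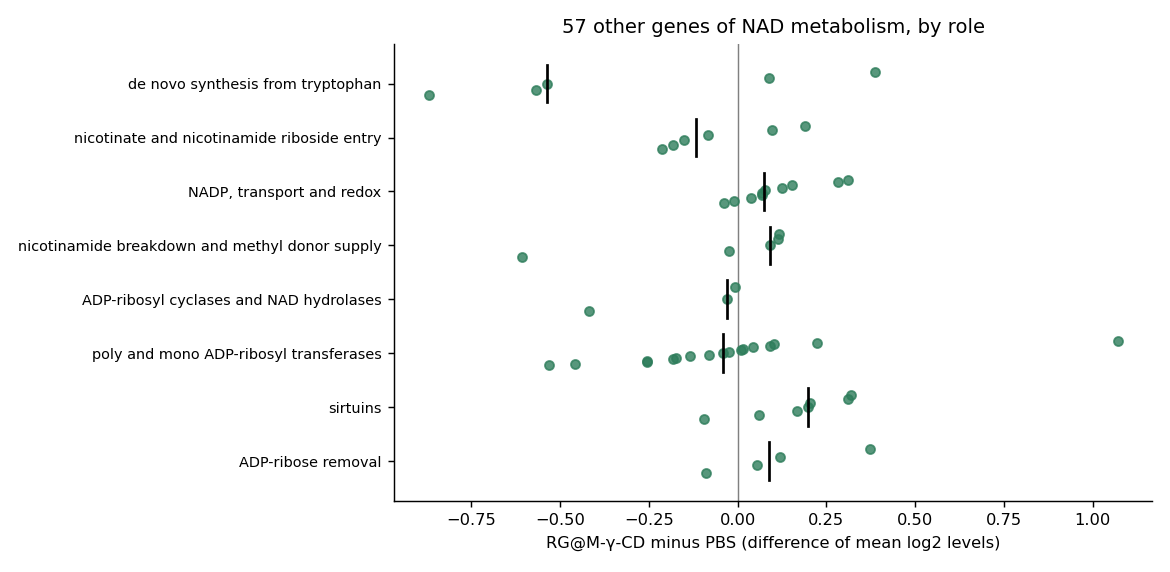
Difference of mean log2 levels between RG@M-γ-CD and PBS (x axis) for the 57 further genes of NAD metabolism tested, 1 point a gene, grouped by role, with the median of each role as a black line (n = 3 arrays in each group). Medians run from −0.54 for de novo synthesis, with 5 genes, to 0.20 for the sirtuins, with 7.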

How the data were processed

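RNA of colon tissue with tumors was labelled with Cy3 and hybridised to Agilent arrays (3 RG and 3 PBS mice, each with its own array). The intensities deposited by the authors came from Feature Extraction 10.7.1.1, per the labels, as background-corrected spot signals with no scaling between arrays. The authors also deposited a table of log2 values whose columns all have the median 4.83. It was used as an alternative, and its normalization is not given in the sources used here.

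Tables were read in R 4.3.3 with the package data.table (version 1.17.8). Controls and outlier spots (114 to 168 an array) were dropped. Log2 signals were averaged per probe and scaled to the 75th percentile of each array, taken over 56605 gene probes. A probe entered the test where every array of at least 1 group showed it well above background, and the brightest such probe stood for its gene. limma 3.58.1 was used with Benjamini-Hochberg adjustment over 19090 genes and a threshold of 0.05. On simulated data for RG against PBS (19087 genes, 200 changed by 2 on the log2 scale) it recovered 73.5%, with 10 unchanged genes called. The simulated noise was independent between arrays and held no division into sets. The planted change was larger than every labelled member difference, so this share does not measure recovery at their size. Summed marker levels are log2 of the summed linear levels. The number of arrays limits the precision.

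Groups came from the labels, and titles number the replicates. Same-numbered arrays did not deviate together (correlations −0.25, −0.233 and 0.136). Named were all members, pathway genes at an unadjusted p of 0.05, 5 tested neighbours on each side of Nmnat1 and the genes most like it. Others were picked after their values were seen, as stated beside them. The members, lists and tests were chosen with earlier results of these data known. The other treatments of the study and its RT-PCR were not analysed here. Figures were drawn with matplotlib 3.10.9.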

Additional observations from a re-analysis of the deposited data

How the results depend on the processing

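The labelled differences of the members and the counts of called genes were recomputed under 16 alternatives: quantile normalization, normexp background correction, the authors' table, other filters on dim probes, outlier spots left in, the mean over probes of a gene, the slide row or the replicate number as a block, the methods' t-test, and leaving out each array. Set differences of the members were recomputed under 13 of these, and those of the other Nmnat1, early Ube4b and Rbp7 probes under 10. The other neighbours, RMS distances, marker sums and role counts were not recomputed. No member and no gene of the pathway list was called at an adjusted p of 0.05 under any of them. Over the whole array 0 genes were called, and leaving out 1 array gave 0 to 202, the latter without RG replicate 1. The set difference of Nmnat1 ran from −2.17 to −2.0 on leaving out 1 array, and it was −1.94 with normexp. Normexp, added for these probes after the values were seen, gave −2.18 for the early Ube4b probe and −1.89 for the other Nmnat1 probe. The Rbp7 difference ran from −1.56 to −0.81 on leaving out 1 array.

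The labelled difference of Nmnat1 changed sign to 0.80 with the slide row as a block, where Nampt became 0.012, Nmrk1 −0.82 and Nnmt 0.18. PBS replicate 1 was the only PBS array in the slide row of the RG arrays. That fit therefore set the 3 RG arrays against this single array. On leaving out 1 array Nmnat1 ran from −1.43 to −0.25, Nampt from −0.22 to 0.034, Nmrk1 from −0.34 to 0.58 and Nnmt from −0.18 to 0.25. Signs turned for Nnmt without RG replicate 1 (0.25), for Nampt (0.034) and Nmrk1 (−0.34) without RG replicate 2, for Nmrk1 (−0.14) and Nnmt (0.051) without PBS replicate 2, and for Nampt (0.026), Nmrk1 (−0.092) and Nnmt (0.0053) without PBS replicate 3. With the mean of its probes Nmrk1 was −0.23. Nmnat2, Nmnat3, Nadsyn1 and Cd38 kept their sign throughout, Nmnat2 from 0.29 with normexp to 1.11 without RG replicate 1 and Cd38 from −0.48 without PBS replicate 2 to −0.24 without PBS replicate 3. The cause of the shifts in the other alternatives was not tested.

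Genes at an unadjusted p of 0.05 numbered 419, against 779 with no filter, 2428 without RG replicate 1 and 241 without RG replicate 3. At a fold change of 2 as well they numbered 107, against 46 with normexp, 327 with no filter, 45 by the methods' t-test and 1141 without RG replicate 1. The numbers do not pair the samples. With the replicate number as a block 0 genes, 0 members and 0 pathway genes were called, 464 genes reached an unadjusted p of 0.05, and Nmnat2 did so among the members (unadjusted p = 0.0371 in limma). It also did so with quantile normalization (0.0383), in the authors' table (0.0382), without PBS replicate 2 (0.0491) and, as given above, without RG replicate 1. It did not in the main fit (0.0582 in limma) or in any of the other alternatives, among them normexp (0.256) and the methods' t-test (0.12).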
